A study of Mus musculus with 4 samples.

Results

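The Hedgehog response genes and their signalling partners, together with the odd-skipped genes, were followed through the cardiopharyngeal mesoderm of the mouse embryo. The set held 9 of the 27998 genes measured, namely Ptch1, Gli1, Gli2, Gli3, Hhip, Smo, Gas1, Osr1 and Osr2, and each was found by its symbol on exactly 1 row of the gene list of every library. The cells were of the Mesp1 lineage, from Swiss Webster embryos of genotype Mesp1Cre;Rosa26-GFPflox/+ in which Cre made in early mesoderm leaves a lasting GFP label. Living GFP-positive cells had been sorted from pooled embryos of either sex and read with the version 2 droplet chemistry, which captures transcript 3' ends. Each stage had 1 library, and of the 4 libraries E8.0 and E8.25 are called early here, E9.5 and E10.5 late. The dissected piece was the rostral body early and the heart with the pharyngeal apparatus late, so that stage and region cannot be told apart. Values given 4 at a time stand in order of stage, from E8.0 onwards. Cells outside the lineage, such as pharyngeal endoderm, were not collected, and no knockout was part of these libraries.

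Hedgehog proteins are secreted signals that bind Patched1, the product of Ptch1. In their absence Patched1 keeps the membrane protein Smoothened (Smo) silent, and once the ligand is bound Smoothened acts on the Gli transcription factors. Gli2 is the main activator, Gli3 largely a repressor, and Gli1 a further activator whose transcription is itself a response to the signal. Ptch1 and Hhip, which encodes a cell-surface decoy for the ligand, are also induced by the signal and dampen it, whereas Gas1 encodes a co-receptor that helps ligand reach Patched1. In the posterior second heart field (pSHF), the mesoderm that feeds the venous pole and atrial septum, Hedgehog signalling from foregut endoderm is known to be needed for atrial septation. Osr1 encodes a zinc finger protein of that mesoderm with a role in the same process, and Osr2 is its paralogue.

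All 9 genes are protein coding, and their positions are given on GRCm38.p6, the RefSeq assembly with the same primary chromosomes as mm10. Ptch1 lies at chr13:63508328-63573460, Gli1 at chr10:127329882-127341579, Hhip at chr8:79965850-80058060, Gas1 at chr13:60174405-60177535, Osr1 at chr12:9574442-9581500 and Osr2 at chr15:35296098-35303305. Promoter windows of 300 bases, from 250 before to 50 after an annotated start, were found in RefSeq for 6 of the 9 genes (Ptch1, Gli2, Gli3, Hhip, Smo and Gas1). The 2 sequences below stand for the decoy gene that was higher at late stages in pSHF-like cells and for the co-receptor gene that at late stages was highest in mesenchyme-like and epicardial-like cells. They are the minus-strand bases before the outermost annotated start, 5' to 3', with CG dinucleotides in capitals, at chr8:80058061-80058258 for Hhip and chr13:60177536-60177785 for Gas1.
Hhip: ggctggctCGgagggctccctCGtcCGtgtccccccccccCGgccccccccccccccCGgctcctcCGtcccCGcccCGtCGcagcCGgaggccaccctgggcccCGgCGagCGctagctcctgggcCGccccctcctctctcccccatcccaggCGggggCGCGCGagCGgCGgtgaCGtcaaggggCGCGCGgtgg
Gas1: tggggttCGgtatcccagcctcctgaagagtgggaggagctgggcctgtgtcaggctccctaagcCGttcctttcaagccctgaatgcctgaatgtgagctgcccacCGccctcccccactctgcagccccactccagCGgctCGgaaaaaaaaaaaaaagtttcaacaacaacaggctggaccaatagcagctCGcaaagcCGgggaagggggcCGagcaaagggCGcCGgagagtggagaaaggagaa
The Hhip window held 30 CG dinucleotides and the Gas1 window 17. Over all 32851 RefSeq promoter windows the median was 7 and the 90th percentile 31. The bases printed leave out part of each window and hold 24 for Hhip and 10 for Gas1. The richest member was Ptch1, with 47 in a window that starts inside the annotated span of the gene. The Gli binding motif GACCACCCA was searched on both strands and was present in 0.253% of all windows and in 0 of the 6 member windows. Its shorter core CCACCCA, which is contained in the full motif, was present in 9.30% of all windows and again in 0 of these 6.

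The libraries held 2956 to 8070 cells and 74920880 to 168407965 UMIs (distinct captured molecules), and 2884 to 7525 cells per library were retained with a median of 15205 to 35216 UMIs. Pairs of libraries shared 0.541% to 1.39% of the barcodes of the smaller one. To assign cells to compartments, each cell was thinned to 10000 UMIs and asked for at least 3 detected markers of a list (5 for cardiomyocytes), and cells that passed more than 1 list were set aside. None of the 9 genes was on a list. The pSHF list of 6 genes included Tbx5, Foxf1, Hoxb1, Wnt2 and Aldh1a2, of which Foxf1 is itself known to respond to Hedgehog. This gave 577, 184, 524 and 355 pSHF-like cells. Gata4, Gata6 and Nr2f2, which the gate did not use, lay above the median of the other compartments in pSHF-like cells in 12 of 12 comparisons, and the corresponding count was 12 of 12 for muscle progenitors (BrM-like, branchiomeric muscle), 9 of 9 for cardiomyocytes (CM-like), 12 of 12 for mesenchyme and 11 of 12 for the anterior second heart field (aSHF-like). These genes were the highest of all compartments in 5 of 12 comparisons for pSHF-like cells, 9 of 12 for BrM-like, 9 of 9 for CM-like, 3 of 12 for mesenchyme-like and 5 of 12 for aSHF-like cells. The cardiomyocyte gate held only 8 cells at E8.25, and this sum was not used. Of the cells that passed the pSHF gate, 164, 108, 173 and 181 also passed the mesenchyme gate and were left out of both.

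Across stages, Osr1 and Hhip were the members that were higher late. Over all retained cells Osr1 stood at 23.3, 16.4, 62.0 and 66.3 CPM, the count of UMIs scaled to 1e6 UMIs of the cells summed. Hhip stood at 2.4, 2.8, 6.8 and 8.4 CPM. In each case both late libraries lay at least 2-fold above both early ones, a rule met by 7.23% of the 14509 genes with enough UMIs, and no member met the opposite rule, which 2.18% met. With 1 library per stage no test between stages was made, and intervals given here are 95% Poisson intervals that cover counting error only. The direct target Ptch1 moved the other way, with 52.7, 43.2, 40.1 and 31.9 CPM, without reaching the 2-fold rule. The co-receptor gene Gas1 was at 61.2, 74.6, 102.3 and 140.1 CPM, a 2.29-fold range, and also fell short of the rule because its E9.5 level was only 1.37-fold that of E8.25. Gli1, Gli2 and Gli3 varied by 1.27-fold, 1.13-fold and 1.26-fold between the lowest and highest library, and Smo by 1.59-fold. Osr2 was nearly absent, at 0.6 to 1.1 CPM. Erythroid-like cells, in which each of the 9 genes was below its level over all cells, made up 15.7% of the gated pool at E10.5. Without them the E10.5 level was 83.8 CPM for Osr1 and 38.9 for Ptch1, and the same 2 genes met the rule.

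**Figure D1:**
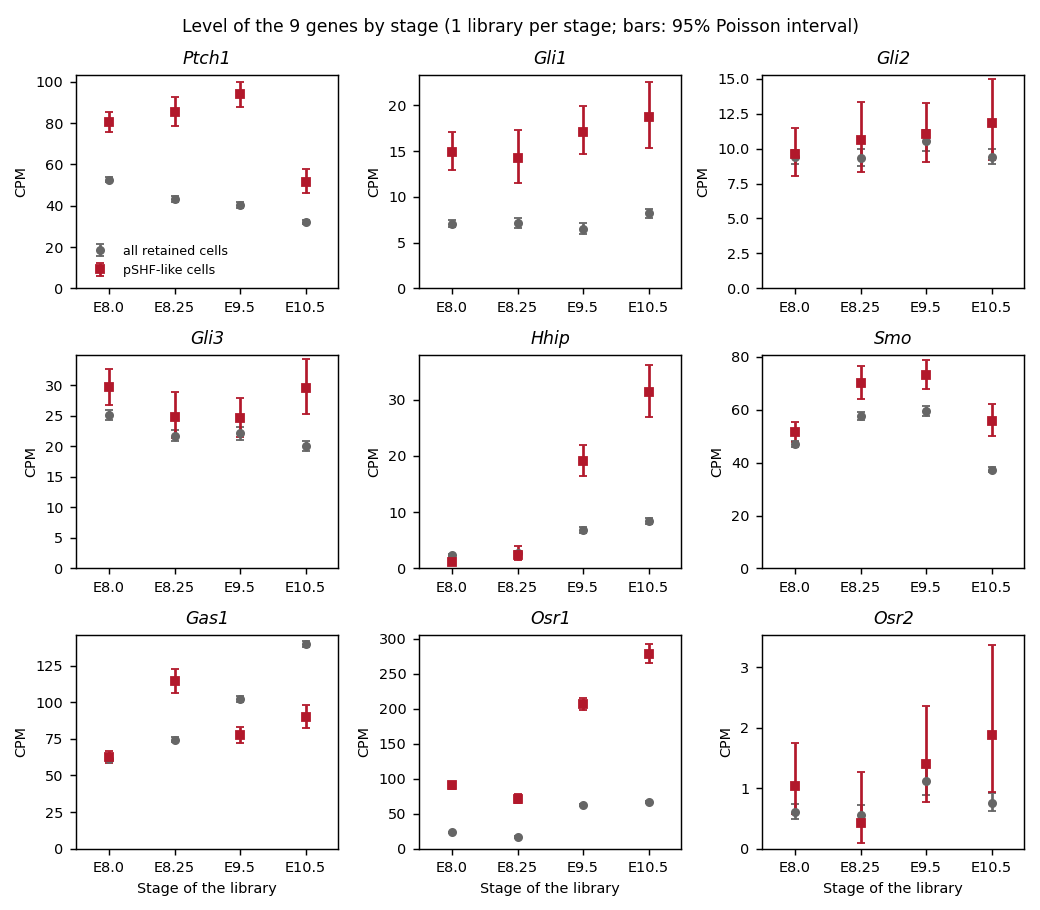
CPM of the 9 genes in each library (x axis, stage), over all retained cells (grey circles) and over pSHF-like cells (red squares), with 95% Poisson intervals. Both late values of Osr1 and of Hhip lie above the early values, and in pSHF-like cells Hhip goes from 1.2 CPM at E8.0 to 31.4 at E10.5.

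Osr1 was the member most concentrated in pSHF-like cells. In pSHF-like cells it stood at 90.3 CPM (interval 85.3 to 95.5) at E8.0 and 71.2 (65.1 to 77.7) at E8.25. The late levels were 207 CPM (198 to 216) at E9.5, then 278 (264 to 292) at E10.5. This was the highest of all compartments in 4 of 4 libraries, and its interval lay apart from the next compartment each time. The next level belonged to paraxial-like mesoderm at E8.0 and E8.25 (12.2 and 12.5 CPM), to aSHF-like cells at E9.5 (55.7 CPM) and to CM-like cells at E10.5 (72.1 CPM). In BrM-like cells Osr1 was at 5.9, 9.2, 8.5 and 41.2 CPM, and in mesenchyme-like cells at 10.4, 8.0, 21.5 and 48.4 CPM. Both compartments were below pSHF-like cells at every stage and highest at E10.5. The gene was at 0.8 to 4.5 CPM in endothelial-like cells, a measure of the free RNA in the droplets together with any transcription there. Cells of the pSHF-like gate were 9.3%, 6.4%, 15.0% and 5.8% of the gated pool and carried 35.9%, 28.5%, 49.0% and 22.3% of its Osr1 UMIs. At equal depth 44.7%, 31.0%, 65.8% and 83.1% of pSHF-like cells had an Osr1 UMI, against 0.455%, 2.44%, 0.690% and 4.97% of endothelial-like cells. Without thinning the pSHF-like shares were 61.4%, 55.4%, 75.8% and 90.1%, at median depths of 22856, 36870.5, 18047.5 and 15526 UMIs. The late libraries were the shallower ones, and the level and the share were both higher in them.

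In paired fits that compared pSHF-like sums with another compartment within each library, Osr1 was higher in pSHF-like cells in every comparison. Its log2 fold change was 3.46 ± 0.32 (SE, 4 libraries) over BrM-like cells (edgeR adjusted p = 0.00215) and 2.96 ± 0.13 over mesenchyme-like cells (edgeR adjusted p = 0.00149). Over aSHF-like cells it was 2.47 ± 0.25 (edgeR adjusted p = 0.00174), and over CM-like cells 3.19 ± 0.52 in 3 libraries (edgeR adjusted p = 0.00743). The direction held in 4 of 4 libraries, or 3 of 3 for CM-like cells. Without the library term in the model, when the difference between stages counts as replicate spread, the fold changes were 3.11, 2.84, 2.27 and 2.67 in the order BrM-like, mesenchyme-like, aSHF-like and CM-like, and none passed (edgeR adjusted p = 0.101, 0.307, 0.392 and 0.123).

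**Figure D2:**
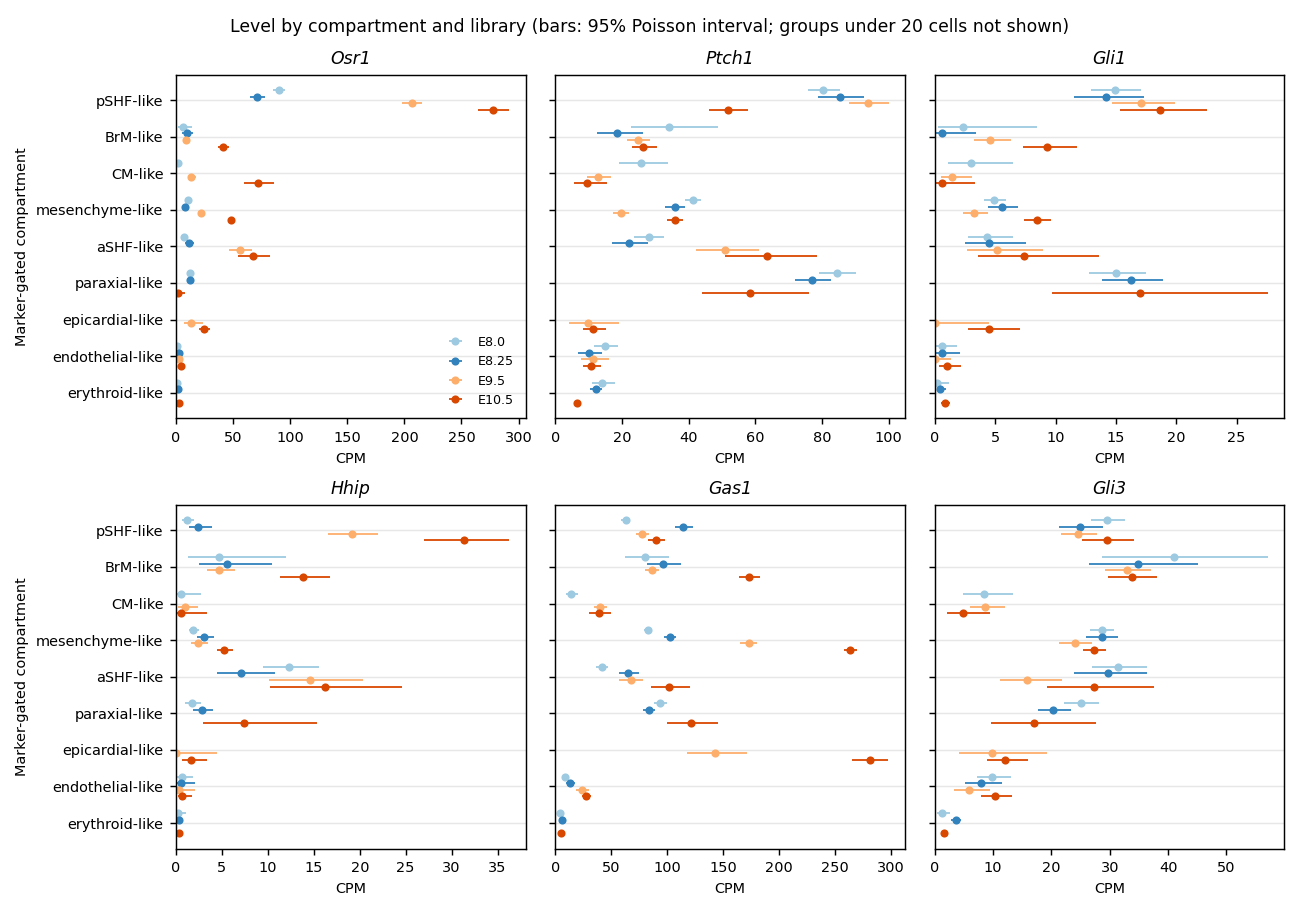
CPM of 6 genes (x axes) in each marker-gated compartment (y axis), coloured by library, with 95% Poisson intervals and without groups under 20 cells. Osr1 is highest in pSHF-like cells in all 4 libraries, Ptch1 and Gli1 are high in both pSHF-like and paraxial-like cells, and late Gas1 is highest in epicardial-like and mesenchyme-like cells.

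Ptch1 and Gli1, the classical readouts of the signal, were also high in pSHF-like cells, but they shared that place with paraxial-like mesoderm. Ptch1 was at 80.4, 85.4, 93.9 and 51.7 CPM in pSHF-like cells. In paraxial-like cells it was at 84.5 CPM at E8.0 and 77.1 at E8.25, and the intervals of the 2 compartments overlapped at both stages. At E10.5 the order was aSHF-like (63.5 CPM), paraxial-like (58.4) and pSHF-like (51.7), and these 3 neighbours again overlapped. In endothelial-like cells 9.9 to 14.8 CPM were counted. In aSHF-like cells Ptch1 was at 27.9 and 21.9 CPM early and at 51.0 and 63.5 CPM late. The pSHF-like level was below the aSHF-like one only at E10.5.

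Gli1, whose transcription depends on the signal, was at 14.9, 14.2, 17.1 and 18.7 CPM in pSHF-like cells, a range of 1.31-fold. Paraxial-like cells had 15.0 CPM at E8.0, 16.2 at E8.25 and 17.0 at E10.5, and their intervals overlapped those of pSHF-like cells at each of these stages. Only 12 paraxial-like cells were found at E9.5, which were not used. In endothelial-like cells Gli1 had 3, 2, 0 and 6 UMIs, and the count of 0 at E9.5 has an upper Poisson bound of 1.34 CPM. Gli1 was higher in pSHF-like cells than in aSHF-like cells by a log2 fold change of 1.64 ± 0.16 (edgeR adjusted p = 0.0016, 4 of 4 libraries), than in BrM-like cells by 1.75 ± 0.35 (edgeR adjusted p = 0.0351) and than in mesenchyme-like cells by 1.56 ± 0.21 (edgeR adjusted p = 0.0254). The BrM-like call was lost when E8.0 was left out (edgeR adjusted p = 0.112), when E8.25 was (0.0594) and when E9.5 was (0.151), and the mesenchyme-like call without E8.0 or E8.25 (0.0765 and 0.0904). Over all alternatives the BrM-like call held in 9 of 17 and the mesenchyme-like call in 12 of 17, and without the library term neither passed (edgeR adjusted p = 0.241 and 0.167). BrM-like Gli1 rested on 2 UMIs at E8.0 and 1 at E8.25. Without Foxf1 and Wnt2 in the pSHF gate the BrM-like call was also lost (edgeR adjusted p = 0.0599).

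Ptch1 was higher in pSHF-like than in BrM-like cells by 1.53 ± 0.20 on the log2 scale (edgeR adjusted p = 0.00734, 4 of 4 libraries), a call lost with gates set at full depth (edgeR adjusted p = 0.0771). It did not pass over mesenchyme-like cells, where the value was 1.21 ± 0.26 (edgeR adjusted p = 0.0739), nor over aSHF-like cells, where it was 1.04 ± 0.29 (edgeR adjusted p = 0.102). The aSHF-like difference passed in 5 of 17 alternatives, and without the E10.5 library the log2 fold change was 1.41 (edgeR adjusted p = 0.0023).

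Hhip, the decoy receptor gene, was highest in aSHF-like cells early and in pSHF-like cells late. The interval of the highest compartment lay apart from that of the next only at E10.5. In pSHF-like cells it was at 1.2 CPM (16 UMIs in 577 cells) at E8.0 and 2.4 (17 UMIs) at E8.25. The late values were 19.1 CPM (191 UMIs) at E9.5, then 31.4 (183 UMIs) at E10.5. The lowest late library was thus 7.84-fold above the highest early one, whereas 5.09% of 12642 genes tested in pSHF-like cells met the 2-fold rule. The highest early levels were in aSHF-like cells, with 12.3 CPM at E8.0 and 7.1 at E8.25, and the late levels there were 14.6 and 16.2 CPM. In BrM-like cells Hhip was at 4.7, 5.5, 4.7 and 13.9 CPM. It was near 0 in CM-like cells, where 1 UMI was counted at E8.0, 4 at E9.5 and again 1 at E10.5. The share of pSHF-like cells with an Hhip UMI at equal depth was 1.04%, 2.72%, 14.5% and 25.1%, against at most 0.662% of endothelial-like cells. Over 4 libraries no difference in Hhip between pSHF-like and BrM-like, mesenchyme-like or aSHF-like cells passed the test, with log2 fold changes of 0.95 ± 0.52, 1.43 ± 0.67 and -0.66 ± 0.61 (edgeR adjusted p = 0.457, 0.324 and 0.641). Early and late libraries had opposite signs in each of these comparisons.

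Osr1 and Hhip were also the members that met the 2-fold rule for late stages within pSHF-like cells, and none of the 9 met the opposite rule, which 2.76% of genes met. In this compartment Ptch1 at E10.5 was 0.61-fold its highest early level. The induced genes had different courses in the same compartment, with the Hhip level up to 26.4-fold apart between libraries and the Gli1 level 1.31-fold.

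The signal transducers were broad. Smo was at 51.4, 70.2, 73.2 and 55.9 CPM in pSHF-like cells, and its log2 fold change over BrM-like, mesenchyme-like and aSHF-like cells lay between 0.03 and 0.08. Smo was detected even in endothelial-like cells, at 26.3 to 38.2 CPM. Gli2 was at 9.6 to 11.8 CPM in pSHF-like cells and highest in aSHF-like cells in 4 of 4 libraries (13.0 to 17.7 CPM), though its interval overlapped that of the next compartment each time. Gli3 was highest in BrM-like cells in 4 of 4 libraries, at 41.1, 34.9, 32.9 and 33.7 CPM against 29.6, 24.8, 24.5 and 29.5 CPM in pSHF-like cells, and its interval lay apart from that of the next compartment only at E9.5. The log2 fold change of pSHF-like over BrM-like cells was -0.42 ± 0.11 for Gli3 and did not pass (edgeR adjusted p = 0.0837). None of these 3 genes was called against BrM-like, mesenchyme-like or aSHF-like cells.

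Gas1 had its high levels outside pSHF-like cells late. In mesenchyme-like cells it was at 82.3, 102.5, 172.6 and 263.7 CPM, and epicardial-like cells reached 142.6 CPM at E9.5 and 281.2 at E10.5. In pSHF-like cells the values were 62.7, 114.4, 77.8 and 89.9 CPM with no order by stage. The log2 fold change of pSHF-like over mesenchyme-like cells was -0.76 ± 0.27 and did not pass (edgeR adjusted p = 0.211), and the pSHF-like level was the higher one only at E8.25. Osr2 was too sparse to place, with at most 4.9 CPM in any compartment sum of at least 20 cells, and it was filtered out of the comparisons with CM-like and aSHF-like cells.

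Counted together, the comparison with BrM-like cells called 3 of the 9 members higher in pSHF-like cells (Osr1, Ptch1 and Gli1) and 0 lower. Of 12057 genes, 2.15% were called higher and 2.3% lower. Over mesenchyme-like cells 2 members were called higher (Osr1 and Gli1) and 0 lower, against 0.511% and 1.39% of genes. Over aSHF-like cells the calls were again Osr1 and Gli1, out of 8 tested, with 0 lower, against 1.39% of genes higher and 2.54% lower. Without the E10.5 library Ptch1 and Gas1 were also called over aSHF-like cells, Gas1 with 0.52 (edgeR adjusted p = 0.0389). Over CM-like cells 7 of 8 tested members were called higher and 0 lower, against 13.6% and 15.4% of genes. The exception was Gli2, at 0.84 ± 0.26 (edgeR adjusted p = 0.0524), which passed in 7 of 16 alternatives. The smallest called change was that of Smo, at 1.02 ± 0.19 (edgeR adjusted p = 0.0121), and it was lost without the E9.5 library (edgeR adjusted p = 0.103). In that comparison Hhip had the largest value, 4.32 ± 0.51 (edgeR adjusted p = 0.0023), which was 1.46 and not called when cells of several gates were counted in each (edgeR adjusted p = 0.22), followed by Gli1 with 3.22 ± 0.40 (edgeR adjusted p = 0.00279). The median log2 fold change of the members was 0.95, 1.98, 0.65 and 0.21 over BrM-like, CM-like, mesenchyme-like and aSHF-like cells, beside 0.01, 0.03, -0.01 and 0.01 over all genes tested. The median over BrM-like cells was the value of Hhip, whose sign differed between early and late libraries. Over mesenchyme-like cells it was that of the sparse Osr2. Neither gene was called there, so these medians do not show a shift of the whole set. These 4 comparisons share the pSHF-like sums. Since the replicates in them are libraries of different stages, the p-values measure whether a difference recurs across stages.

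**Figure D3:**
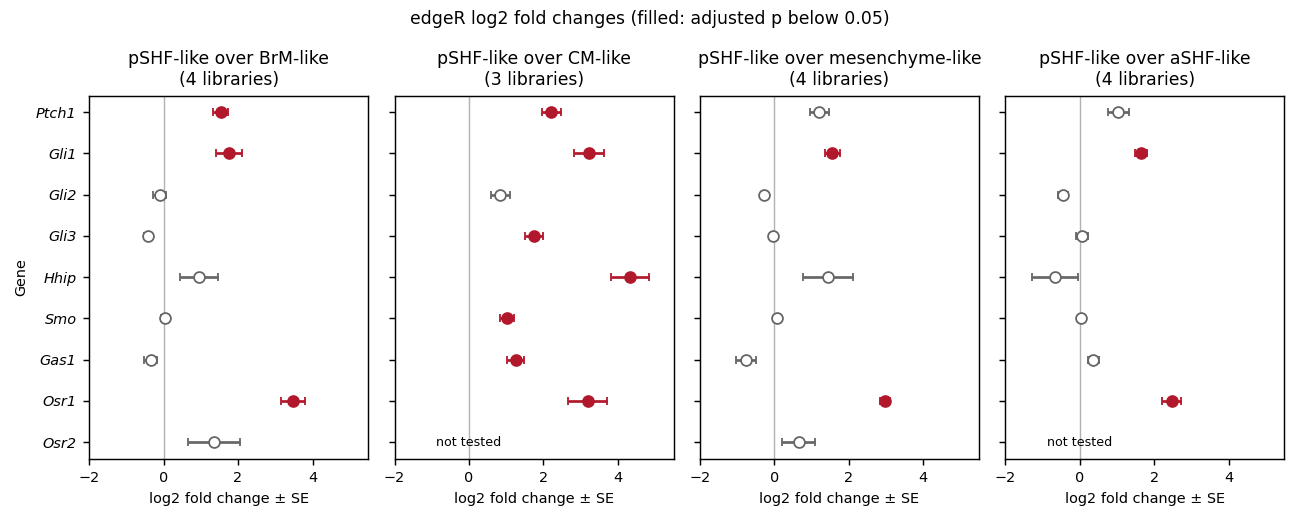
The log2 fold change of pSHF-like cells over 4 other compartments (x axes) for each gene (y axis), with standard errors derived from the edgeR F statistic. Filled red points passed an adjusted p of 0.05. Osr1 and Gli1 are filled in each of the 4 panels, Ptch1 in the panels of BrM-like and CM-like cells.

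Osr1 and the Hedgehog readouts parted in paraxial-like cells, where at E8.0 the level was 13.5% of the pSHF-like one for Osr1, 105.1% for Ptch1 and 100.5% for Gli1. In CM-like cells their course over the stages differed. In CM-like cells Osr1 was at 1.5 CPM (3 UMIs) at E8.0, 13.4 at E9.5 and 72.1 at E10.5, whereas Ptch1 was at 25.7, 12.7 and 9.5 CPM and Gli1 at 3.0, 1.4 and 0.6 CPM. At E10.5 the CM-like level was 25.9% of the pSHF-like level for Osr1, 18.4% for Ptch1, 3.19% for Gli1 and 1.90% for Hhip. To see which cardiomyocytes carried Osr1, CM-like cells were divided by detection of Nr2f1 or Nr2f2, transcription factor genes of atrial identity. This division was chosen after the CM-like values had been seen. Nr2f2 was also among the check genes for pSHF-like cells, so its detection does not mark atrial identity alone. At E9.5 the 125 cells with either gene held 56 Osr1 UMIs (22.6 CPM, interval 17.1 to 29.4) and the 93 cells without held 1 UMI (0.6 CPM, 0.0 to 3.1). At E10.5 the 59 cells with either gene held 120 Osr1 UMIs (109.8 CPM) and the 33 cells without again held 1 (1.7 CPM). Median depth differed little between the divided cells, at 18715 and 18088 UMIs at E9.5 and 16519 and 15932 at E10.5. Tbx5, another gene of the atria and of the venous pole, was divided in the same direction (94.5 and 33.6 CPM at E9.5, 97.9 and 13.7 at E10.5). Ptch1 was not, with 12.9 and 12.3 CPM at E9.5. Foxf1 was at 25.0 and 1.1 CPM at E9.5 and at 4.6 and 0.0 CPM at E10.5, so that UMIs of a pSHF gene also lay with the Osr1-carrying cells at E9.5. By contrast, division by Myl2, a gene of ventricular muscle, placed most Osr1 in cells without it at E10.5 (115.2 CPM, and 19.7 CPM with it). At E8.0 there were 3 Osr1 UMIs in all CM-like cells, too few to divide.

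**Figure D4:**
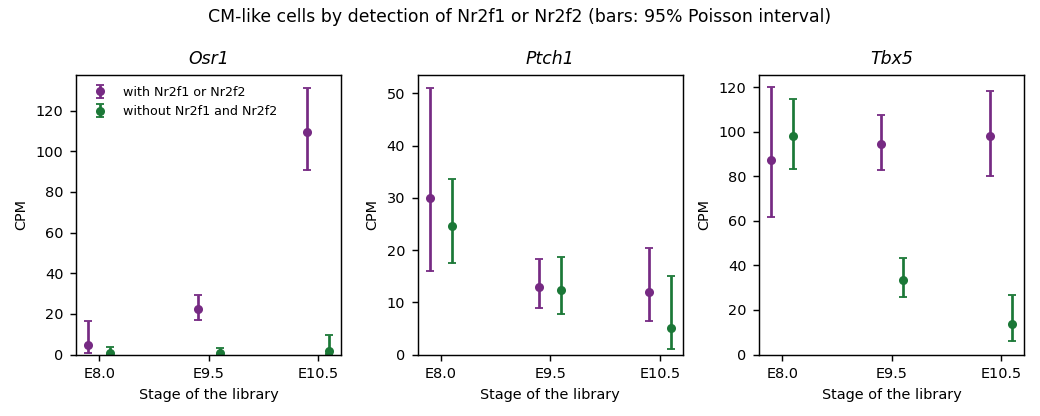
CPM of Osr1, Ptch1 and Tbx5 (y axes) in CM-like cells with and without a UMI of Nr2f1 or Nr2f2, by library (x axis), with 95% Poisson intervals. Late Osr1 and Tbx5 lie with the cells that have either gene, and Ptch1 shows overlapping intervals.

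Among cells that passed no other gate, Osr1 was higher the more of the 6 pSHF markers a cell showed. This held up to 4 markers at E8.0 and E9.5 and up to 3 in the other libraries. At E8.0 the intervals at 3 and 4 markers overlapped. Cells with fewer than 3 lie outside the pSHF-like gate. Within the gate, at 3, 4 and 5 or more markers, Osr1 was at 89.2, 95.7 and 81.9 CPM at E8.0. At E9.5 Osr1 went from 6.9 CPM with 0 markers through 42.6, 100.6, 157.0 and 261.8 to 256.7 CPM with 5 or more. At E10.5 it was at 15.4 CPM with 0 markers, 213.9 with 2, 280.3 with 3 and 273.3 with 4. Ptch1 differed between the 2 late libraries. At E9.5 it went from 17.6 CPM with 0 markers to 106.3 with 4, while at E10.5 it was at 74.0 with 2 markers, 57.2 with 3 and 37.3 with 4. Hhip showed no such course early, with 2.8 CPM at 0 markers and 0.9 at 4 markers at E8.0, and late it went from 3.7 to 20.4 CPM at E9.5 and from 4.6 to 32.8 CPM at E10.5 between the same numbers. Markers were counted at equal depth, and these courses are given with no test.

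**Figure D5:**
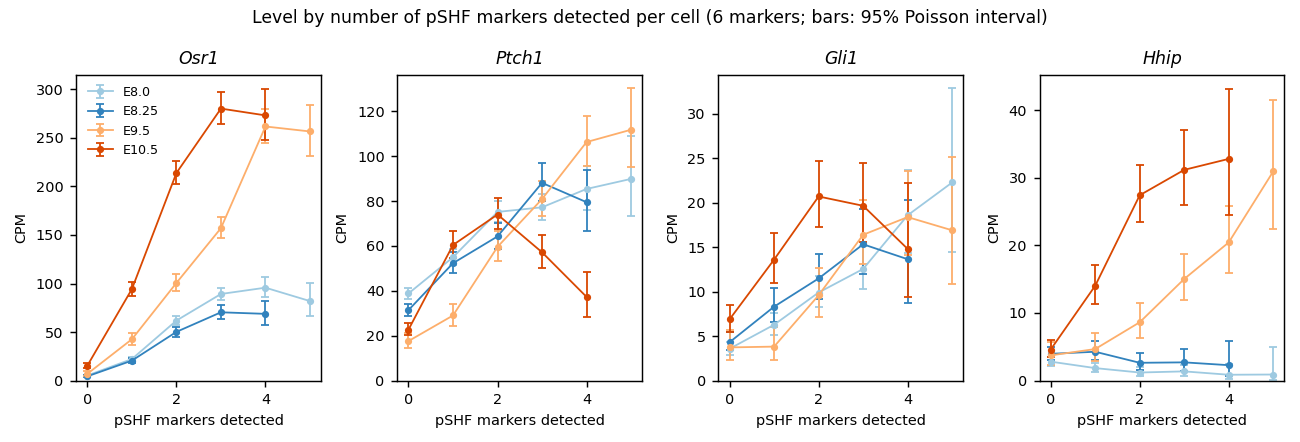
CPM of Osr1, Ptch1, Gli1 and Hhip (y axes) by the number of the 6 pSHF markers detected in a cell (x axis, the last point standing for 5 or more), coloured by library, with 95% Poisson intervals and without groups under 20 cells. Osr1 climbs up to 3 or 4 markers in all 4 libraries, Hhip only in the late ones, and Ptch1 at E10.5 is highest at 2 markers.

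Osr1 was lower in early pSHF-like cells with Wnt2, a gene of cardiopulmonary mesoderm, than in those without. At E8.0 Osr1 was at 58.7 CPM in pSHF-like cells with a Wnt2 UMI and 114.9 in those without, and at E8.25 at 47.9 and 91.4 CPM. The intervals lay apart at both stages. They overlapped at E9.5 (201.8 and 217.7 CPM) and at E10.5 (266.4 and 298.8 CPM). Ptch1 was likewise lower in the cells with Wnt2 at E8.0 (69.1 and 89.3 CPM), E8.25 (61.5 and 106.1 CPM) and E9.5 (83.7 and 117.2 CPM). The gate marker Tbx5 went the same way at E8.0. At equal depth Osr1 was detected in 28.2% (exact interval 19.0 to 39.0) of pSHF-like cells with Tbx5 and in 47.6% (43.1 to 52.1) of the others. In the later libraries the intervals with and without Tbx5 overlapped. A pSHF-like cell without Wnt2 needed 3 of the other 5 markers and a cell with it 2, and likewise for Tbx5. The part of this in the differences was not tested.

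At E9.5 Osr1 was detected more often in pSHF-like cells that had a Ptch1 or an Hhip UMI than in those that did not. At equal depth Osr1 was detected in 78.5% (exact interval 73.1 to 83.2) of the 274 pSHF-like cells with a Ptch1 UMI and in 52.0% (45.6 to 58.3) of the others at E9.5. For cells with an Hhip UMI the shares were 88.2% and 62.1%, with intervals apart, while those with and without Gli1 overlapped (76.5% and 63.8%). Cells with both Ptch1 and Gli1 were 64, 1.44 times the number given by the product of the 2 shares. The same ratio was 1.01 at E8.0, 1.35 at E8.25 and 1.01 at E10.5. At E8.0 Osr1 was detected in 53.3% of cells with Ptch1 and 37.1% of the others, and the shares with and without Gli1 overlapped (43.1% and 45.0%). At E8.25 and E10.5 the intervals for Osr1 with and without each of the 3 response genes overlapped. At E10.5 Ptch1 was detected in 57.3% of cells with Hhip and 30.1% of the others, again with intervals apart. In contrast, at E9.5 Osr1 was less frequent in cells with a Gas1 UMI (55.3%) than in those without (74.0%). The higher Osr1 share at E9.5 was not particular to the response genes. It was 71.6% with and 30.1% without the gate marker Foxf1, and 71.6% with and 59.7% without Smo, with intervals apart. For Tbx5, Wnt2 and Gli3 the intervals at E9.5 overlapped. Cells of 1 library are not replicates, and these shares are descriptions of each library.

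The other genes of the pathway were measured from a list of 26. Genes of the ligands were low over all retained cells, with Shh at 0.01 to 0.19 CPM, Ihh at 0.00 to 0.20 and Dhh at 0.05 to 1.54. Mean Dhh was 0.03 CPM in pSHF-like and 0.17 in mesenchyme-like cells, and the cells behind its higher value were not sought. Over BrM-like cells 4 of 21 tested list genes were called higher in pSHF-like cells and 0 lower (2.15% of all genes higher), namely Foxl1, Bmp4, Ccnd1 and Lrp2. Foxl1, a forkhead gene that responds to Hedgehog in gut mesoderm, was higher by 3.72 ± 0.50 on the log2 scale (edgeR adjusted p = 0.0085), and Bmp4 by 1.71 ± 0.16 (edgeR adjusted p = 0.0019). Bmp4 was not called over the other compartments. Its values were -0.15 ± 0.25 over CM-like, 0.26 ± 0.08 over mesenchyme-like and -0.52 ± 0.20 over aSHF-like cells (edgeR adjusted p = 0.684, 0.166 and 0.225). Over CM-like cells 7 of 20 were called higher and 0 lower (13.6% of all genes higher), among them Foxl1, Foxf2, Boc, Mycn, Ccnd1 and Ift88. Over aSHF-like cells 2 of 21 were called (1.39% of all genes higher), Foxf2 with 1.38 ± 0.23 (edgeR adjusted p = 0.0152) and Foxl1 with 1.38 ± 0.26 (edgeR adjusted p = 0.0273). Over mesenchyme-like cells 0 of 21 were called (0.511% of all genes higher). The list's median log2 fold change was 0.26, 0.76, 0.05 and 0.11 over BrM-like, CM-like, aSHF-like and mesenchyme-like cells. In pSHF-like cells Foxl1 was at 1.9, 7.2, 22.9 and 22.4 CPM and Foxf2 at 11.5, 6.3, 20.4 and 50.9 CPM, so both lay higher in the late libraries, as Hhip did. The auxiliary receptor genes Boc and Cdon stayed at 2.0 to 5.6 CPM there. The negative regulator gene Sufu was at 8.7 to 13.5 CPM.

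The genes with the most similar distribution were sought over the 31 sums of at least 20 cells, by Pearson's r of log2(CPM + 1) among 8022 genes that reached 20 CPM and marked no compartment. For Osr1 these were Fam19a1 (r = 0.83), Cldn11 (0.80), Tshz1 (0.79), the noncoding gene Fendrr (0.79), which neighbours Foxf1, and Flywch2 (0.78). For Gli1 the first was Ptch1 (r = 0.89), followed by Stra6 (0.89), which encodes a receptor for retinol transport, Spsb4 (0.83), Pdlim4 (0.82) and Fndc3c1 (0.82). For Ptch1 they were Stra6 (0.86), Arg1 (0.84), Fndc3c1 (0.82), Ptges (0.81) and Pdlim4 (0.80). Gli1 stayed under 20 CPM in every sum and was therefore not ranked here, although its r with Ptch1 (0.89) was above that of Stra6. Osr1 itself correlated with Ptch1 at 0.53, with Gli1 at 0.61 and with Hhip at 0.60. The sums of 1 library share its depth and its embryos, so these are descriptions.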

How the data were processed

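The 4 libraries were sorted GFP-positive Mesp1-lineage cells, 1 library per stage. The authors aligned reads to mm10 with Cell Ranger 3.1.0, and the deposited files hold raw UMI counts per gene and cell for barcodes called as cells. Members, gene lists, gates and alternatives were chosen with earlier results of these data known. Cells with at least 1000 genes and at most 10% mitochondrial UMIs were kept, and the highest Scrublet scores (scanpy 1.11.5) were removed at 0.8% per 1000 cells. Retained cells under 10000 UMIs (0.867% to 19.3% per library) were not gated. UMIs were summed per library and compartment (at least 20 cells) and tested with edgeR 4.0.16 (quasi-likelihood, TMM, library as block), with Benjamini-Hochberg adjustment over all genes passing the low-count filter and a threshold of 0.05. The tests rest on libraries, each a pool of embryos. The standard errors given were the absolute log2 fold change divided by the square root of the edgeR F statistic. Shares carry exact Clopper-Pearson 95% intervals. In the stage rule, genes needed 100 UMIs over all cells or 20 in pSHF-like cells. Named besides the members were pathway genes called in at least 1 comparison and the 5 ranked genes most like Osr1, Ptch1 and Gli1. The ligand genes, Cdon and Sufu were named as well, though they were not called. On simulated counts for the 4 comparisons (11634 to 13038 genes) the fit recovered 43% to 71% of genes changed 2-fold. Of those changed 4-fold it recovered 98% to 100%. These counts had a fixed dispersion and the same change in every library, and only the better counted genes were changed. The recovery therefore does not carry over to genes with few UMIs or with differences that vary between stages. Alternatives included DESeq2 1.42.0. The protein sequences were not analysed here. A gene of the pSHF list and a gene of the pathway list are not reported here by name.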

Additional observations from a re-analysis of the deposited data

Results flagged for a closer look

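In 5 comparisons of pSHF-like cells with another compartment, both early libraries had one sign and both late libraries the other. These differences between early and late were not tested. The log2 ratio of the Hhip level in pSHF-like over BrM-like cells was -1.98 at E8.0 and -1.18 at E8.25, then 2.02 and 1.18 in the late libraries. The late mean lay 3.18 above the early mean. The early BrM-like level rested on 4 and 9 Hhip UMIs. For Hhip over mesenchyme-like cells the ratios were -0.68, -0.33, 2.99 and 2.58, a difference of 3.29. For Hhip over aSHF-like cells they were -3.37, -1.54, 0.39 and 0.95, a difference of 3.13. Smo over BrM-like cells went from -0.22 and -0.14 to 0.25 and 0.23, a difference of 0.42. Gli3 over aSHF-like cells went from -0.08 and -0.26 to 0.63 and 0.11, a difference of 0.54. Among these 5, the Smo and Gli3 differences were the small ones. The dissected region changed between the same stages as the sign, and stage and region cannot be told apart.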

How the results depend on the processing

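Over the 4 comparisons and the 2 stage counts, the number of members kept within 1.5 times its main value in 69 of 80 recomputed counts. Without the replicate block (library not in the model) 1, 4, 0 and 1 members were called over BrM-like, CM-like, mesenchyme-like and aSHF-like cells, in place of 3, 7, 2 and 2, and all calls fell from 536 to 54, 3326 to 1115, 246 to 1 and 463 to 42. The labels number every library 1, so the block is the library, which both compartments of a comparison share. Leaving out each library in turn gave 2 to 3 members over BrM-like, 5 to 8 over CM-like, 1 to 2 over mesenchyme-like and 2 to 4 over aSHF-like cells. Gates at full depth gave 1 member over BrM-like cells. With 1 marker more per gate, or with cells of several gates counted in each, 1 member was called over mesenchyme-like cells, and the latter setting gave 4 over aSHF-like cells. DESeq2 called 3, 7, 3 and 3 members and 615, 2533, 578 and 442 genes, and without the low-count filter 919, 3948, 577 and 857 genes were called. Of 558 fold changes of single members under alternatives, 0 reversed a call, 21 lost one and 16 gained one, and 17 of 314 that were never called changed sign. Osr1 lost its call only without the block. The cause of the lost calls was not tested. Both stage counts were 2 under every alternative run but gates at full depth, which gave 3 in pSHF-like cells.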
